A study of Rattus norvegicus with 18 samples.

Results

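Voltage-gated sodium channels carry the inward current of the neuronal action potential. The genes described here were 4 pore-forming alpha subunits (Scn1a, Scn2a, Scn3a and Scn8a) and 2 auxiliary beta subunits (Scn2b and Scn3b). They were taken by name, as the rows of the deposited gene tables whose symbol equalled a listed one regardless of case. All 6 were found among the 31463 rows, and all 6 were among the 14398 genes that passed the filter on low counts.

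An alpha subunit forms the whole ion-conducting pore, opens on depolarisation and then inactivates. Beta subunits span the membrane once, change the gating and surface expression of the pore and also act as cell adhesion molecules. Scn2a and Scn3a are prominent early in cortical development, whereas Scn1a, typical of fast-spiking interneurons, and Scn8a, typical of the mature axon initial segment, gain weight as neurons mature.

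RNA was sequenced from primary neuroglial cultures of the newborn rat cortex, in which neurons grow together with glia, at day 10 in vitro. Excitotoxicity, the injury of neurons by excess glutamate, was modelled with 100 µM glutamate, and RNA was taken after a further 4 h in culture medium. The 18 libraries formed 6 groups of 3, and all cultures came from Wistar rats and had received cytosine arabinoside, which limits the division of glia. Control cultures received no glutamate, Glutamate cultures received glutamate alone, and Memantine cultures received glutamate together with 100 µM memantine, a blocker of NMDA-type glutamate receptors, according to the design text, since the label of the group names memantine only. Glutamate_vesicles, Glutamate_secret and Glutamate_BPC cultures received glutamate after a preparation secreted by human glial progenitor cells. The first of these was extracellular vesicles. The labels do not say which of the others was the protein fraction of 3 to 100 kDa and which the total secretome, so their names are used as given. Nothing in the labels says that the replicates were separate cultures, and p-values measure the spread between these libraries only.

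Library totals ranged from 8409574 to 17206354 estimated counts, and ribosomal RNA took 3.04% to 43.0% of them. Libraries differed by replicate number as well as by group. Ribosomal RNA was 13.4% to 43.0% in the libraries numbered 1, 3.04% to 8.15% in those numbered 2 and 6.59% to 26.6% in those numbered 3. Memantine library 3 stood apart from the other Memantine libraries. Its summed level of 8 neuronal markers (Tubb3, Rbfox3, Map2, Snap25, Syt1, Stmn2, Nefl and Nefm) was 613 CPM (counts scaled by library size), against 3150 and 2085 in libraries 1 and 2 and 568 to 1124 in the Glutamate group. The cultures expressed neuronal and astrocytic markers as labelled, while Dcn and Lum of fibroblasts and Cdh5 and Flt1 of endothelium were at or below 1.09 CPM in every library. Other markers of these cell types were low, with Col1a1 up to 7.42 CPM, Col1a2 up to 5.44 CPM and Pecam1 up to 2.65 CPM. Col1a1, a collagen gene, passed an unadjusted p below 0.05 with a fold above 1.5 upward against Control in all 3 preparation groups, with log2 fold changes of 2.24 in Glutamate_vesicles, 1.99 in Glutamate_secret and 1.77 in Glutamate_BPC, and its part in the results was not tested.

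The bases before the annotated start of 3 genes are shown because these genes stand for the contrasting patterns that follow. Scn2b had Control libraries that did not overlap those with glutamate and without memantine, and Scn2a and Scn8a varied in opposite directions with the replicate number. The sequences are from RefSeq for assembly GRCr8, which is not the build of the deposited tables, and 4 of the 6 genes had an entry there. Each is the stretch of 250 bases before the start, on the + strand of chr8:54322133-54322382 (Scn2b), chr3:70710706-70710955 (Scn2a) and chr7:133860977-133861226 (Scn8a). Capitals mark CpG dinucleotides.
Scn2b: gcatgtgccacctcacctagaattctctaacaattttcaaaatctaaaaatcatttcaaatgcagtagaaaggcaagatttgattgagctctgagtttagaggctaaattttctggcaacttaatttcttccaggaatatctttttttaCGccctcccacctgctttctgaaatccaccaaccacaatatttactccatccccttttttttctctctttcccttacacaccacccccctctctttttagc
Scn2a: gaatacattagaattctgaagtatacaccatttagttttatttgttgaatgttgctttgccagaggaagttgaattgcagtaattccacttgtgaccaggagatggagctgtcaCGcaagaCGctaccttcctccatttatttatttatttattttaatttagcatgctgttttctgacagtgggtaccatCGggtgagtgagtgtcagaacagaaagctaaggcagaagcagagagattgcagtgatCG
Scn8a: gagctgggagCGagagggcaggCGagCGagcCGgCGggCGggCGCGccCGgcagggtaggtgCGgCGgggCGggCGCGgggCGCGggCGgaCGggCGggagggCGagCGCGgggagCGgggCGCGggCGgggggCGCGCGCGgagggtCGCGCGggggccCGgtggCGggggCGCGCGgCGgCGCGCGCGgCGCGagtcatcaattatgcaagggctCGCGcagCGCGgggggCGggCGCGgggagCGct
The Scn8a stretch held 53 CpG dinucleotides and 86.0% G and C. Those of Scn2a and Scn2b held 4 and 1 CpG, with 39.6% and 38.8% G and C, and the median of 33469 rat promoters was 51.2%. Scn3a, on the same chromosome as Scn2a, had 4 CpG and 41.6% G and C. In both directions, no match was found in these 4 stretches to the cyclic AMP response element TGACGTCA, present in 1.59% of all promoters, or to the REST half-sites CAGCACC (5.43%) and GGACAG (18.2%). The AP-1 element TGANTCA, present in 6.34%, had 1 match, in Scn3a.

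Both beta subunits had lower expression in every library exposed to glutamate without memantine than in any Control library. Scn2b, which links the pore to the cell surface and to adhesion partners through a disulfide bond with the alpha subunit, was at 37.7, 37.9 and 32.6 CPM in Control libraries 1, 2 and 3. It was at 17.6, 15.1 and 20.1 CPM in the Glutamate libraries. Over the 12 libraries with glutamate and without memantine, the lowest, median and highest Scn2b levels were 12.03, 15.04 and 20.8 CPM, so that the groups did not overlap. The share of all genes with all 12 libraries below Control was not counted. This order is therefore not read as particular to the beta subunits.

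Scn3b, a beta subunit that associates with the alpha subunit without a covalent bond, showed the same order. It was at 66.0, 92.4 and 56.7 CPM in Control and at 30.6, 28.7 and 25.3 CPM in Glutamate. Over the 12 libraries its lowest, median and highest levels were 15.02, 23.6 and 30.9 CPM, again all below Control.

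**Figure D1:**
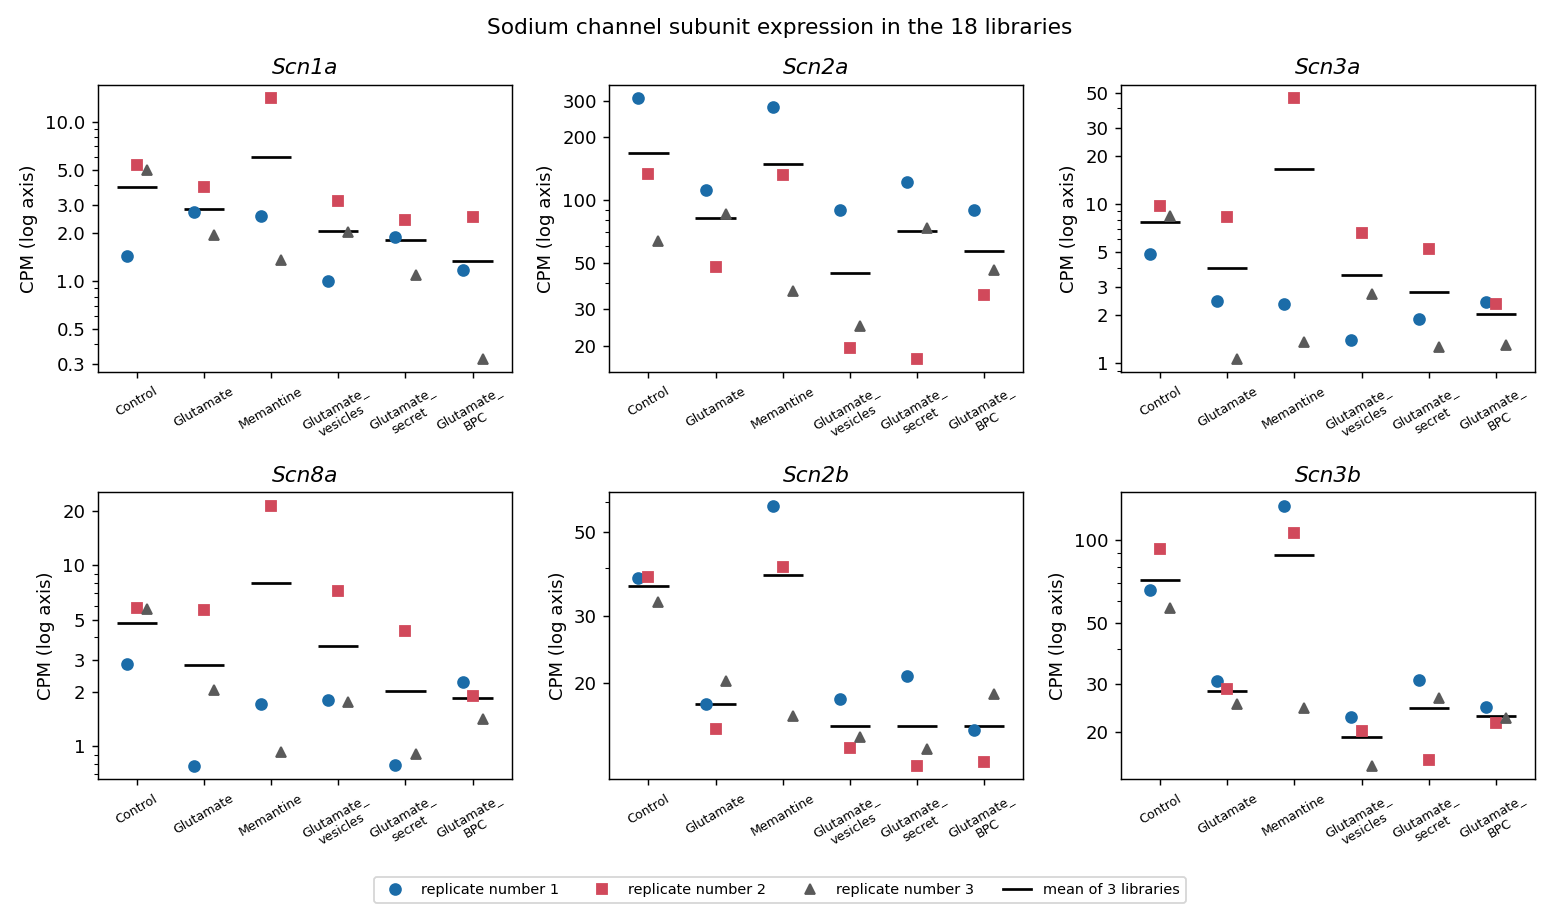
Expression of the 6 sodium channel genes in CPM on a log axis (vertical) in the 6 groups (horizontal). Points are single libraries with a marker for each replicate number and lines are means of 3 libraries. Control libraries of Scn2b (32.6 to 37.9 CPM) and Scn3b (56.7 to 92.4 CPM) lie above all 12 libraries with glutamate and without memantine, whereas the alpha subunits spread widely by replicate number. The share of all genes with that order was not counted.

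In the comparison of Glutamate with Control, which addresses the effect of the excitotoxic exposure, Scn2b was 2.05-fold lower (log2 fold change -1.04, SE 0.39, quasi-likelihood test of edgeR). Scn3b was 2.54-fold lower (log2 fold change -1.35, SE 0.46). After Benjamini-Hochberg adjustment over all genes, the adjusted p was 0.449 for Scn2b and 0.378 for Scn3b, so neither gene was called changed. Each gene was lower in Glutamate for 3 of 3 replicate numbers. By an unadjusted p below 0.05 together with a fold above 1.5, 2 of the 6 genes were lower, where 5.97% of all genes tested were, and 2 of 6 had ranges wholly below Control, against 7.76% of all genes. No gene of the whole table was called at an adjusted p below 0.05 in this comparison by this test (0%), 1167 had an unadjusted p below 0.05, and neither DESeq2 nor the likelihood-ratio test of edgeR called any of the 6. Without Glutamate library 2, only Scn3b met the unadjusted criterion, with Scn2b at -0.93. The median log2 fold change was -0.996 over the 6 genes and 0.09 over all genes.

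The neuronal markers were lower in the same libraries. Their sum was 2412 ± 415 CPM in Control and 768 ± 309 CPM in Glutamate (SD, n = 3), and all 8 had a negative log2 fold change, 4 of them past the unadjusted criterion. In RNA from whole cultures, fewer cells of a type and less RNA per cell cannot be told apart. Among excitatory markers, Slc17a7 (-2.92), Slc17a6 (-2.38) and Neurod6 (-2.33) were lower by the unadjusted criterion in Glutamate than in Control, with no overlap. Slc17a7, a vesicular glutamate transporter, was at 51.4, 78.3 and 52.9 CPM in Control and at 16.4, 3.81 and 4.09 CPM in Glutamate. Markers of inhibitory neurons (Gad1, Gad2, Slc32a1, Dlx1 and Dlx2) summed to 228.5 ± 5.56 CPM in Control and 97.8 ± 24.3 CPM in Glutamate. None of the 7 astrocyte markers passed the unadjusted criterion, and their sum was 3910 ± 1860 in Control and 7444 ± 2800 CPM in Glutamate. The part of these markers in the differences of the sodium channel genes was not tested in the fits.

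Per 100 counts of neuronal markers, the summed counts of Scn2b and Scn3b were 4.48 ± 0.515 in Control and 6.48 ± 1.90 in Glutamate (SD, n = 3, exact permutation test, two-sided, p = 0.3, adjusted p = 0.45 over 9 comparisons). Memantine had 6.598 ± 0.465, Glutamate_vesicles 4.999 ± 0.285, Glutamate_secret 5.42 ± 0.457 and Glutamate_BPC 5.21 ± 1.21. With 3 libraries against 3, the smallest p this test allows is 0.1, so that it could not reach 0.05. Relative to the summed neuronal markers, no group of libraries had a lower mean than Control for the beta subunits. Stmn2 and Tubb3 made up most of that sum, with means of 1268 and 703 CPM of 2412 CPM in Control. The markers did not differ alike, with Stmn2 at 384.5 CPM in Glutamate, and Map2 at 52.8 CPM in Control and 50.4 CPM in Glutamate. The ratio of the beta subunits to other sets of markers was not tested, so this order holds for this sum only.

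**Figure D2:**
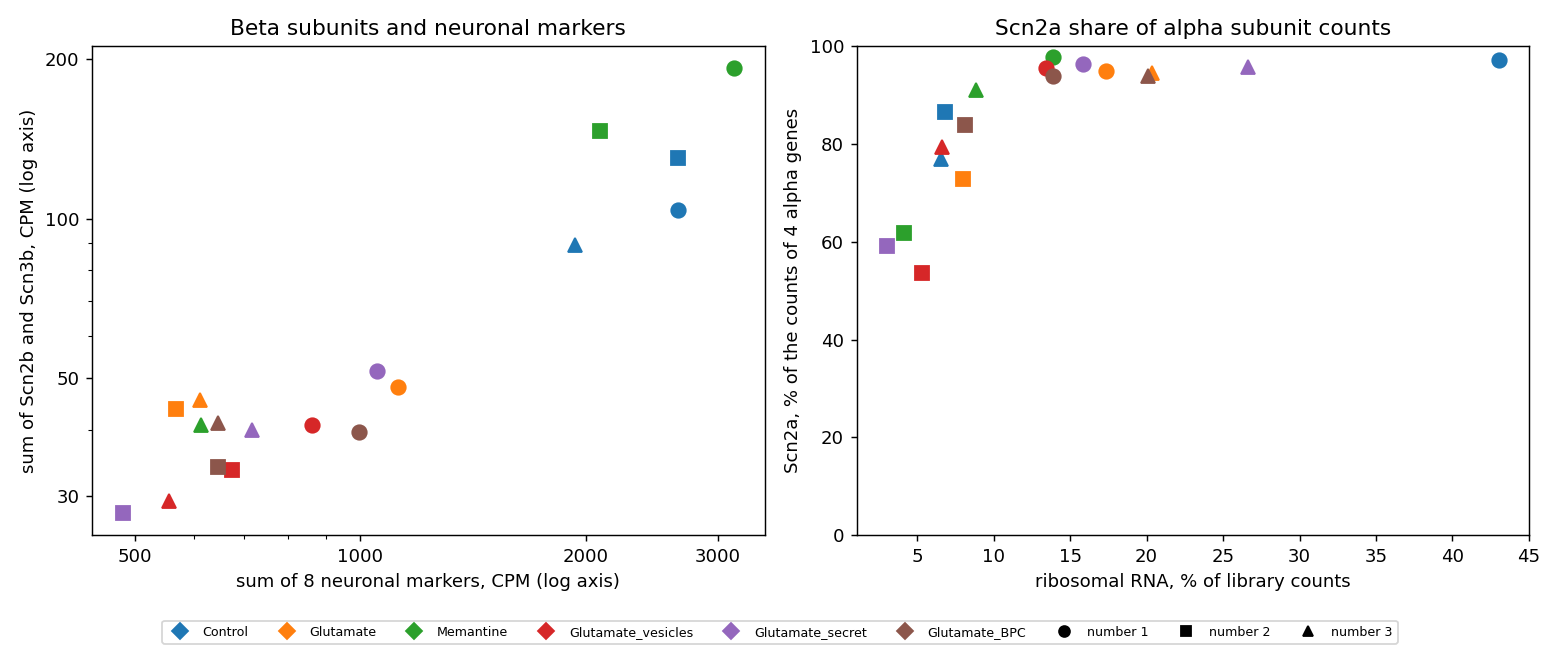
Left, summed expression of Scn2b and Scn3b (vertical, CPM, log axis) against the sum of 8 neuronal markers (horizontal, CPM, log axis) in the 18 libraries. Right, percentage of the counts of 4 alpha genes that belong to Scn2a (vertical) against the percentage of ribosomal RNA (horizontal). Colours mark groups and symbols replicate numbers. Memantine library 3, at 613 CPM of neuronal markers, lies among the Glutamate libraries, and the libraries numbered 2 hold lower Scn2a shares (53.6% to 86.5%) than those numbered 1 (93.9% to 97.7%).

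Memantine was the positive control for protection. Scn2b was at 58.6, 40.3 and 16.3 CPM in Memantine libraries 1, 2 and 3, and Scn3b was at 134, 106.2 and 24.6 CPM. Libraries 1 and 2 were above every Glutamate library for both genes, and library 3 lay within or below the Glutamate range. Against Glutamate, the log2 fold change of Scn2b was 1.13 (SE 0.39, adjusted p = 0.627 by edgeR) and that of Scn3b was 1.64 (SE 0.46, adjusted p = 0.611). The replicate numbers were taken, from the data alone, as pairing the libraries of these groups. With the replicate number as a block, the values were 1.06 for Scn2b (adjusted p = 0.324, edgeR) and 1.53 for Scn3b (adjusted p = 0.269).

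These 2 genes passed the unadjusted criterion upward, where 4.86% of all genes did, and 0 of the 6 genes were called at an adjusted p below 0.05 by the quasi-likelihood test of edgeR, which called 0% of all genes. DESeq2 and the likelihood-ratio test also called none of the 6, and DESeq2 called 2 other genes. Over all genes, 731 had an unadjusted p below 0.05. The adjusted calls depended on Memantine library 3. Without it, Scn3a, Scn2b and Scn3b passed the unadjusted criterion upward, where 8.49% of the genes tested did. Scn2b then differed by 1.49 (adjusted p = 0.0347, edgeR) and Scn3b by 2.08 (adjusted p = 0.0142), where 1.61% of the genes tested were called higher. The median log2 fold change over the 6 genes was 1.31, against -0.02 over all genes. Both genes were higher in Memantine for replicate numbers 1 and 2 and lower for number 3.

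Against Control, Memantine differed by 0.09 for Scn2b (95% interval -0.73 to 0.91 on the log2 scale) and by 0.30 for Scn3b (-0.66 to 1.26). None of the 6 genes passed either criterion in edgeR, where 0% of all genes were called and 1.12% passed the unadjusted one in either direction, and DESeq2 and the likelihood-ratio test called none of the 6. The intervals are wide enough to hold a 1.5-fold difference in each direction, so that these values do not show the groups to be alike. This comparison shares the Memantine libraries with the previous one.

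The vesicle group had the lowest mean of Scn3b. Scn3b was at 22.6, 20.1 and 15.02 CPM in Glutamate_vesicles, at 30.9, 15.8 and 26.6 CPM in Glutamate_secret and at 24.6, 21.6 and 22.6 CPM in Glutamate_BPC. The ranges of Glutamate_vesicles and Glutamate_BPC lay below that of Glutamate, and that of Glutamate_secret overlapped it. Scn2b was at 18.1, 13.5 and 14.4 CPM, at 20.8, 12.03 and 13.4 CPM and at 15.03, 12.3 and 18.7 CPM in the same groups. All of these ranges overlapped that of Glutamate.

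Tested against Glutamate, which asks whether a preparation altered the response, Scn3b differed by -0.55 in Glutamate_vesicles (95% interval -1.52 to 0.42, log2 scale), by -0.21 in Glutamate_secret (-1.18 to 0.76) and by -0.30 in Glutamate_BPC (-1.26 to 0.67). Scn2b differed by -0.20, -0.19 and -0.20, each with an interval from -1.02 to 0.63. None of the 6 genes met either criterion against Glutamate in the 3 preparation groups, and none was called by DESeq2 or the likelihood-ratio test. Over all genes, edgeR called 0% in each of the 3 comparisons, and 0.597%, 0.361% and 0.667% passed the unadjusted criterion downward in Glutamate_vesicles, Glutamate_secret and Glutamate_BPC. At any fold, 155, 98 and 154 genes had an unadjusted p below 0.05. For Scn3b, the only one of the 6 whose range lay below Glutamate, 3.38% of all genes did so in Glutamate_vesicles and 4.24% in Glutamate_BPC.

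Against Control, both beta subunits were lower in all 3 preparation groups, with no overlap. For Scn3b, the log2 fold changes were -1.90 (SE 0.47, adjusted p = 0.175 by edgeR) in Glutamate_vesicles, -1.56 (SE 0.46, adjusted p = 0.195) in Glutamate_secret and -1.64 (SE 0.46, adjusted p = 0.295) in Glutamate_BPC. For Scn2b they were -1.23 in each group, with adjusted p = 0.23, 0.23 and 0.303 by edgeR. Each value was lower for 3 of 3 replicate numbers. These comparisons share the Control libraries with each other and with that of Glutamate against Control, so they are not separate support.

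The unadjusted criterion was met downward by 3 of the 6 genes in Glutamate_vesicles (7.59% of all genes), by 2 in Glutamate_secret (7.58%) and by 2 in Glutamate_BPC (7.4%). Ranges lay below Control for 2, 2 and 4 of the 6 genes, against 9.83%, 9.07% and 12.7% of all genes, the additional genes in Glutamate_BPC being Scn3a and Scn8a. The quasi-likelihood test called 0 of the 6, where 0.0139% of all genes were called in Glutamate_vesicles and 0% in the other two. An unadjusted p below 0.05 was seen for 1670, 1692 and 1632 genes. Other tests called Scn3b. DESeq2 did so in Glutamate_vesicles (adjusted p = 0.00978, where 2.19% of all genes were called lower) and Glutamate_BPC (adjusted p = 0.0436, 1.16%), and the likelihood-ratio test in Glutamate_vesicles (adjusted p = 0.027, 0.736%).

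In Glutamate_vesicles against Control the replicate numbers were taken, from the data alone, as pairing the libraries (r = 0.6, 0.505 and 0.208). The fit with the replicate number as a block called 2 of the 6 genes. It gave each number a common effect over all 18 libraries. The numbers did not pair Control with Glutamate, Memantine, Glutamate_secret or Glutamate_BPC, so the calls rest on an assumption the labels do not give. Scn3b had a log2 fold change of -1.91 (SE 0.41, adjusted p = 0.028, edgeR) and Scn2a one of -2.03 (SE 0.53, adjusted p = 0.0456), where 2.77% of all genes were called lower. Scn2b had an adjusted p of 0.0578. The adjusted p-values moved with single libraries, while the log2 fold changes stayed between -1.69 and -2.10 for Scn3b and between -1.69 and -2.37 for Scn2a. In that fit, Scn3b remained called without Control library 1 (adjusted p = 0.0277) and without Control library 3 (adjusted p = 0.0274). Leaving out Control library 2 gave Scn3b an adjusted p of 0.0824, and leaving out vesicle libraries 1, 2 and 3 gave 0.142, 0.117 and 0.105. For Scn2a the adjusted p was 0.0241 without Control library 3 and between 0.0991 and 0.179 without any other library.

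**Figure D3:**
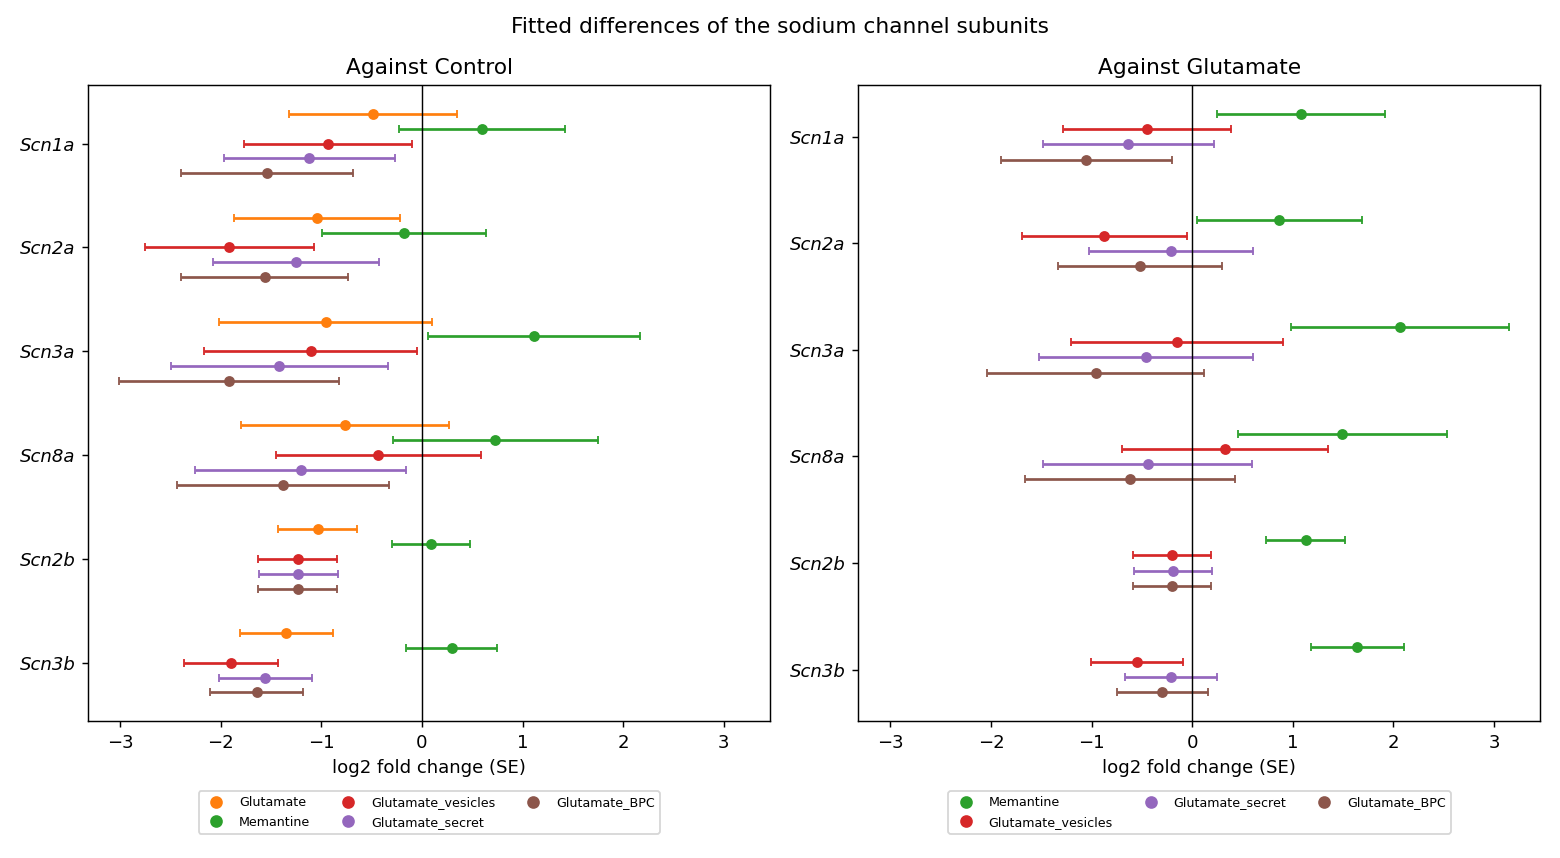
Fitted log2 fold changes (horizontal) of the 6 genes (vertical) against Control (left) and against Glutamate (right), with bars of 1 SE, coloured by group. Scn2b and Scn3b lie near -1.04 to -1.90 against Control in all groups but Memantine, with shorter bars than the alpha subunits.

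The alpha subunits spread widely within every group. Scn2a, the main pore of immature axons and of excitatory neurons, was at 309, 134 and 64.0 CPM in Control libraries 1, 2 and 3. It was at 112, 47.8 and 85.6 CPM in Glutamate and at 278, 132 and 36.7 CPM in Memantine. The preparations gave 89.8, 19.5 and 24.9 CPM in Glutamate_vesicles, 122, 17.4 and 73.9 CPM in Glutamate_secret and 89.9, 35.1 and 46.3 CPM in Glutamate_BPC. Control overlapped each of the other groups, Control library 3 being below 2 of the 3 Glutamate libraries.

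Scn2a differed by -1.04 (SE 0.82) between Glutamate and Control and by -1.92 (SE 0.84, adjusted p = 0.388, edgeR) between Glutamate_vesicles and Control. Its mean level was highest in Control (169 ± 126 CPM), followed by Memantine (149 ± 122), Glutamate (81.8 ± 32.3), Glutamate_secret (71.0 ± 52.2), Glutamate_BPC (57.1 ± 29.0) and Glutamate_vesicles (44.8 ± 39.1, all SD, n = 3). Neighbours in this order overlapped.

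Scn3a, an alpha subunit of the developing cortex, was at 4.85, 9.72 and 8.46 CPM in Control and at 2.45, 8.32 and 1.07 CPM in Glutamate. Memantine library 2 held 46.4 CPM, against 2.36 and 1.36 CPM in Memantine libraries 1 and 3. In the preparation groups Scn3a lay between 1.27 and 6.58 CPM. Library 2 was thus the highest of its group in 5 of 6 groups, and in Glutamate_BPC library 1 was higher, at 2.44 against 2.36 CPM.

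Scn8a, the pore of mature initial segments and nodes, was at 2.85, 5.79 and 5.76 CPM in Control and at 0.775, 5.65 and 2.04 CPM in Glutamate. It was at 1.72, 21.5 and 0.934 CPM in Memantine and between 0.788 and 7.18 CPM in the preparation groups. Scn1a, the pore whose loss impairs inhibitory interneurons, was at 1.43, 5.35 and 4.96 CPM in Control, at 2.71, 3.87 and 1.95 CPM in Glutamate and at 2.58, 14.1 and 1.36 CPM in Memantine. It lay between 0.325 and 3.17 CPM in the preparation groups. Memantine library 2 was the highest of all libraries for Scn1a, Scn3a and Scn8a.

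None of these 3 alpha subunits passed the unadjusted criterion in any of the 9 comparisons by the main quasi-likelihood test on all 18 libraries. In Memantine against Glutamate, Scn3a passed it upward under DESeq2, under the likelihood-ratio test and when Memantine library 3 was left out. Against Control, their log2 fold changes in Glutamate were -0.49 for Scn1a (95% interval -2.25 to 1.28), -0.96 for Scn3a (-3.21 to 1.30) and -0.76 for Scn8a (-2.95 to 1.42). Memantine differed from Glutamate by 1.08, 2.07 and 1.49, and these differences rested on Memantine library 2. Without it they were -0.54, -1.10 and -1.12. Median counts of Scn1a, Scn3a and Scn8a were 22.5, 24.5 and 23 per library, with lowest counts of 3, 7 and 5, and differences of these genes carry the wide intervals given above. Estimated counts of Scn1a, Scn2a and Scn3a were not whole numbers in 15, 16 and 17 of 18 libraries. Reads matching several of these similar genes could have been divided between them, and their values are uncertain to that extent. Those of Scn8a, Scn2b and Scn3b were whole in all 18.

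The replicate number separated the alpha subunits into opposite patterns. With the group in the model, libraries numbered 2 had 2.49-fold more Scn1a than those numbered 1 (log2 fold change 1.31, SE 0.45, adjusted p = 0.0199, edgeR, higher in 6 of 6 groups). Scn3a was 3.79-fold higher (adjusted p = 0.00743, 5 of 6 groups) and Scn8a 4.15-fold higher (adjusted p = 0.00345, 5 of 6 groups). Scn2a went the other way, with a log2 fold change of -1.55 (SE 0.37, adjusted p = 0.00228), and was lower in number 2 in 6 of 6 groups. Scn2b (-0.39, adjusted p = 0.178) and Scn3b (-0.20, adjusted p = 0.562) passed no threshold. Of all genes, 32.8% were called higher and 28.5% lower in number 2, so that 3 and 1 of 6 called genes are read against a split that ran through most of the table. Ribosomal RNA differed between the same libraries, and its part was not tested.

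Against the libraries numbered 2, those numbered 3 had less Scn1a (-1.35, adjusted p = 0.0277, edgeR), Scn3a (-2.05, adjusted p = 0.0115) and Scn8a (-1.82, adjusted p = 0.0134), and Scn2a differed by 0.17 (adjusted p = 0.725). The share of all genes called between numbers 3 and 2 was not counted, so these calls are not read as particular to the channel genes. Scn2a took 93.9% to 97.7% of the counts of the 4 alpha genes in libraries numbered 1, 53.6% to 86.5% in those numbered 2 and 77.0% to 95.8% in those numbered 3. These are shares of counts and are not corrected for transcript length. By group, the share was 86.9% ± 10.1 in Control and 87.4% ± 12.6 in Glutamate (SD, n = 3, exact permutation test, two-sided, p = 1.0).

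Across the 18 libraries, which share groups and replicate numbers, log2 CPM of Scn2b and Scn3b correlated with r = 0.95, and r was 0.96 after centring within replicate numbers. Scn3a and Scn8a correlated with r = 0.91 (0.85 centred) and Scn1a and Scn3a with r = 0.85 (0.75 centred). Scn2a correlated with Scn3b at r = 0.78 (0.89 centred) but with Scn3a at r = 0.07 (0.48 centred). Among the 8592 genes whose log2 CPM averaged 3 or more, those most like the mean of the 6 genes over the 18 libraries were Plxna4, a semaphorin receptor subunit (r = 0.977), Gabbr2, a GABA-B receptor subunit (0.971), Gas7 (0.969), Cnksr2, a postsynaptic scaffold protein (0.967), and Add2, a subunit of the membrane skeleton protein adducin (0.965). After centring, they were Plxna4 (0.976), Chd3 (0.970), Add2 (0.969), Dync1li1 (0.968) and Cnksr2 (0.967).

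Partners of the channel at the axon initial segment were described from a list of 11 genes, of which 10 were tested. In Glutamate against Control, 3 of 10 were lower by the unadjusted criterion, where 5.97% of all genes were, and none was higher. They were Fgf13, an intracellular modulator of sodium channels (-1.998, adjusted p = 0.378, edgeR), Sptbn4, the spectrin of the initial segment (-1.65, adjusted p = 0.392), and Trim46, which bundles initial segment microtubules (-1.79, adjusted p = 0.473). Fgf13 was at 53.4, 70.6 and 73.7 CPM in Control and at 7.88, 24.7 and 16.8 CPM in Glutamate, with no overlap. Ank3, the ankyrin that anchors the channels, differed by -0.91 (adjusted p = 0.945, edgeR). In Memantine against Glutamate, Sptbn4 (2.37, adjusted p = 0.611), Trim46 (1.86, adjusted p = 0.688) and Kcnq3, a potassium channel subunit of the same site (2.27, adjusted p = 0.891, all by edgeR), were higher by that criterion, which 4.86% of all genes passed upward. Each of these genes overlapped Glutamate, and Kcnq3 ran from 0.719 to 25.2 CPM in Memantine and from 0.388 to 4.00 CPM in Glutamate. In each preparation group against Control, 4 of 10 partners were lower by the unadjusted criterion. Of all genes, 7.59% were in Glutamate_vesicles, 7.58% in Glutamate_secret and 7.4% in Glutamate_BPC. In Glutamate_vesicles, the fit with the replicate block called Kcnq3 (-3.24, adjusted p = 0.0453, edgeR) and Trim46 (-1.81, adjusted p = 0.0405), where 2.77% of all genes were called lower. That fit called 4 of 10 partners lower in Glutamate_secret (3.99% of all genes) and 0 in Glutamate_BPC (1.2%). The replicate numbers did not pair the libraries of those 2 groups with Control.

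The sodium pump restores the gradient on which the channels draw. Atp1b1, a beta subunit of the pump, was lower in Glutamate against Control by the unadjusted criterion (-1.48, adjusted p = 0.282, edgeR). It was at 282, 349 and 369 CPM in Control and at 117, 124 and 118 CPM in Glutamate, with no overlap. Atp1b1 was also past the criterion downward against Control in each preparation group and upward in Memantine against Glutamate. In Glutamate_vesicles against Control its log2 fold change was -1.49 (adjusted p = 0.184, edgeR) and, with the replicate block, -1.51 (adjusted p = 0.0323). Against Control, the block called 2 of 6 pump genes lower in Glutamate_vesicles, where 2.77% of all genes were. It called 2 of 6 in Glutamate_secret (3.99%) and 0 in Glutamate_BPC (1.2%).

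Of 10 regulators of sodium channel transcripts or proteins, only Nova2, a neuronal splicing factor, was past the criterion in Glutamate against Control (-0.93, adjusted p = 0.491, edgeR), 1 of 10 against 5.97% of all genes lower. Rest, the repressor of neuronal genes, differed by 2.15 (SE 1.39, adjusted p = 0.86, edgeR). Against Control, 3 of 10 were past it downward in Glutamate_vesicles (7.59% of all genes), 2 in Glutamate_secret (7.58%) and 4 in Glutamate_BPC (7.4%). Celf4, an RNA-binding protein known to bind sodium channel transcripts, was among them in Glutamate_vesicles (-2.21, adjusted p = 0.241, edgeR), Glutamate_secret (-1.73, adjusted p = 0.365) and Glutamate_BPC (-1.72, adjusted p = 0.382). With the replicate block in Glutamate_vesicles, Celf4 (-1.99, adjusted p = 0.0341) and Rbfox1, a neuronal splicing factor (-1.67, adjusted p = 0.0346), were called, where 2.77% of all genes were called lower. The block called 1 of 10 regulators lower in Glutamate_secret (3.99%) and 0 in Glutamate_BPC (1.2%). The remaining regulators past the unadjusted criterion were Pum2 in Glutamate_vesicles (-1.34) and Glutamate_BPC (-1.27), Rbfox1 in Glutamate_secret (-1.46), and Rbfox2 (-1.45) and Nova2 (-0.92) in Glutamate_BPC.

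Of 9 other sodium channel genes, 5 passed the filter on low counts, and Scn4a, Scn10a, Scn11a and Scn4b did not. None of the 5 passed the criterion in Glutamate against Control, where 4 had a positive log2 fold change and 1 a negative one. Against Control, 1 of the 5 passed it upward in Glutamate_vesicles, where 3.97% of all genes did, and 1 in Glutamate_secret (4.1%).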

How the data were processed

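Expression of 6 sodium channel genes was analysed in 18 rat libraries. The deposited values are expected counts, that is, estimated counts per gene made by the authors, who ran Trimmomatic and Cutadapt on the reads, used Salmon against Ensembl 106 transcripts (rn6) with a genome decoy, and summed transcripts to genes with tximport. The submitters' processing notes also name STAR. The labels and the paper name different library kits and instruments, and whether the counting used strand was not stated. If it did not, reads of genes that overlap on opposite strands could not be told apart. A read from near-identical paralogues is divided by the estimate.

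The expected counts were rounded to whole numbers. Tests used edgeR 4.0.16 in R 4.3.3, with the quasi-likelihood test, 1 mean per group over all 18 libraries, TMM scaling and filterByExpr (minimum count 10, minimum total 15), which kept 14398 genes. This design was drawn up for raw counts and applied to the rounded values. P-values were two-sided and adjusted by Benjamini-Hochberg over all genes, with calls at 0.05. A second criterion was an unadjusted p below 0.05 with a fold above 1.5. CPM used the TMM-scaled library size, and log2 CPM a prior count of 2. The interval of a difference is the log2 fold change with its SE and the t quantile of the fit at 95%. The study's likelihood-ratio test and DESeq2 1.42.0 were alternatives. The script was tested on simulated data.

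Replicate numbers were taken as pairing 2 groups where libraries of each number deviated together (every r above 0.1). This held for Memantine against Glutamate (0.756, 0.889 and 0.573), Glutamate_secret against Glutamate (0.705, 0.892 and 0.445), Glutamate_BPC against Glutamate (0.453, 0.751 and 0.484) and Glutamate_vesicles against Control (0.600, 0.505 and 0.208). The pairing comes from the data, since the labels give only the numbers. The blocked fit gave each number a common effect over all 18 libraries, also in groups where the rule did not hold. The authors' supplement describes clustering on batch-corrected counts and names a day covariate for one such analysis, but no source used here says which libraries shared a day.

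All 6 genes were named throughout. From the lists of other channels, initial segment partners, regulators and pumps, up to 4 genes of smallest p that met the second criterion were named, and other genes with values (Ank3, Rest) were chosen after their values were seen. The members and lists were chosen with earlier results of these data known. Promoter sequences were read from a RefSeq table. Some genes of these lists are not reported here.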

Additional observations from a re-analysis of the deposited data

How the results depend on the processing

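No sodium channel gene changed the side of its threshold or its direction in Glutamate against Control under another scaling, filter, test or the replicate block, and the number past the unadjusted criterion was 1 to 2 when single libraries were left out. There the replicate numbers did not pair the libraries (r = 0.591, 0.571 and -0.117), and over all genes the block called 159 lower and 7 higher, DESeq2 198 and 37, and the likelihood-ratio test 38 and 7. The numbers of sodium channel genes called against Control in Glutamate_vesicles were 1 by the likelihood-ratio test, 1 by DESeq2 and 2 with the replicate block. In Glutamate_BPC the number was 1 by DESeq2. In Glutamate_secret it was 1 with the replicate block (Scn3b, adjusted p = 0.0436, edgeR), where 3.99% of all genes were called lower. The replicate numbers did not pair the libraries there. Genes past the unadjusted criterion against Control were 5 with the log2 ribosomal RNA share as a covariate in Glutamate_vesicles, 5 with the replicate block and 4 with the covariate in Glutamate_secret, and 5 in Glutamate_BPC with the block, with the covariate or with only the compared groups. With the block, 13.6% of all genes passed it downward in Glutamate_secret and 13.3% in Glutamate_BPC. That share was not counted with the covariate or with only the compared groups. In Memantine against Glutamate the number of sodium channel genes past it was 1 with only the compared groups, and 0 to 2 genes were called without single libraries. In Glutamate_vesicles against Glutamate the number past it was 1 with the block (Scn2a), where 1.88% of all genes were lower by it. The covariate, and leaving out libraries from the blocked fit, were chosen after seeing the data. The block changed no other call of the 6 genes. Among listed genes it also called Fgf13 and Trim46 (adjusted p = 0.0401 and 0.0422) and the neuronal markers Tubb3, Stmn2 and Snap25 (0.0398, 0.0401 and 0.0477) in Glutamate against Control.

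Small or uneven differences turned direction. In Glutamate_vesicles against Glutamate, Scn3a was 0.0686 with the block and Scn8a -0.42 with the covariate. In Memantine against Control, Scn3a and Scn8a were -0.0036 and -0.19 with the block, and Scn1a, Scn2a, Scn3a and Scn8a were -0.0052, 0.48, -0.17 and -0.34 with the covariate. Without single libraries, log2 fold changes ranged as follows. In Memantine against Glutamate they ran from -0.54 to 1.54 for Scn1a, from -1.10 to 3.25 for Scn3a and from -1.12 to 2.50 for Scn8a. In Glutamate_vesicles against Glutamate they ran from -0.69 to 1.34 for Scn8a and from -0.94 to 1.04 for Scn3a. In Glutamate_secret against Glutamate they ran from -0.85 to 0.25 for Scn2a, from -1.33 to 0.73 for Scn3a, from -1.75 to 0.57 for Scn8a and from -0.42 to 0.0247 for Scn3b. In Glutamate_BPC against Glutamate they ran from -1.40 to 0.23 for Scn3a and from -1.05 to 0.39 for Scn8a. In Memantine against Control they ran from -0.99 to 0.59 for Scn2a, from -0.35 to 0.48 for Scn2b, from -0.13 to 0.76 for Scn3b, from -1.03 to 1.08 for Scn1a, from -2.06 to 1.67 for Scn3a and from -1.88 to 1.27 for Scn8a, with 0 to 1 genes past the unadjusted criterion. The summed alpha counts per 100 neuronal marker counts differed from Glutamate by -3.67 (Memantine), -4.99 (Glutamate_vesicles), -2.69 (Glutamate_secret) and -4.39 (Glutamate_BPC) with 8 markers, and by -6.51, -10.8, 3.26 and -8.16 with Rbfox3, Map2 and Tubb3 only, so that Glutamate_secret changed sign. Between Glutamate_secret and Control they differed by 2.23 with 8 markers and by 11.3 with these 3. Glutamate itself was above Control by 4.93 with 8 markers (means of 12.3 and 7.38) and by 8.08 with these 3. The scale differs by construction, and no adjusted p of these ratios (exact permutation test) was below 0.45. The cause of these shifts was not tested.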
